A study of Drosophila melanogaster with 18 samples.

Results

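The soluble glutathione transferase genes of Drosophila melanogaster were followed across ovary RNA of 4 genotypes and 2 temperatures. Members were the probe sets (groups of short array probes for 1 transcript) whose annotation names a single gene with a current symbol beginning GstD, GstE, GstO, GstS, GstT or GstZ and a number. This gave 36 of the 18769 probe sets tested, for 34 of the 35 such genes in the RefSeq annotation and of 11982 named genes on the array, and GstE8 had no probe set of its own name. The delta class (GstD) had 11 probe sets for 11 genes, the epsilon class (GstE) 14 for 13, the omega class (GstO) 4 for 3, the theta class (GstT) 4 for 4, the zeta class (GstZ) 2 for 2 and the sigma class (GstS) 1 for 1. GstE9 and GstO2 were each read by 2 probe sets.

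Glutathione transferases join glutathione to electrophilic compounds, such as insecticides, plant toxins and products of lipid peroxidation, so that these can be exported from the cell. The delta and epsilon classes are expanded in insects and lie in clusters of neighbouring gene copies, while the theta, omega, sigma and zeta classes also occur in vertebrates. In flies the transcription factor CncC, held back by Keap1, switches on several of these genes under oxidative or chemical stress, and GstD1 is the usual reporter of that response.

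The study compared 6 groups of 3 arrays, 1 array per sample, and the design text calls the 3 samples biologically independent. At 25 °C, which the treatment notes call heat stress, the genotypes were Marcal1del/del and yw. At 20 °C, the untreated temperature, they were RpII2154/FM7;Marcal1del/del, RpII2154/FM7, Marcal1del/del and yw. Marcal1del/del flies are homozygous for a deletion of Marcal1, the fly counterpart of the annealing helicase SMARCAL1. RpII2154 changes RpII215, which encodes the largest subunit of RNA polymerase II, and is carried over the X balancer FM7, so both RpII2154 genotypes also carry a rearranged X. The genotype fields of RpII2154/FM7 replicates 2 and 3 name FM8 and FM9, and the titles, which name FM7, were followed. The labels give neither the females' age, nor the number of ovaries per sample, nor whether the stocks share a genetic background. Values are log2 intensities, and an array's own median lay between 4.07 and 4.20. Since the samples are whole ovaries, fewer cells of a type and less RNA per cell cannot be told apart.

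Marcal1 itself checked the labels, at 6.03 ± 0.14 in Marcal1del/del and 8.11 ± 0.24 in yw at 25 °C, 5.84 ± 0.38 in RpII2154/FM7;Marcal1del/del ovaries and 7.79 ± 0.21 in RpII2154/FM7 ovaries, and 5.87 ± 0.03 in Marcal1del/del and 7.94 ± 0.49 in yw at 20 °C (mean ± SD, n = 3 each). All 7 measured germline markers and all 13 measured eggshell genes of late follicle cells reached a group mean over the lowest array median. In all, 3 arrays stood apart from their groups: on the mean log2 level of the eggshell genes RpII2154/FM7 replicate 3 was at 8.52, against 12.93 and 13.07 in the other RpII2154/FM7 arrays, and yw 20 °C replicate 1 at 9.94, against 12.53 and 12.60, while on the mean of 9 muscle genes yw 25 °C replicate 1 was at 7.29, against 5.20 and 5.36. Values without these 3 arrays are given where they change a call. The 6 arrays of the RpII2154 genotypes carry names of another array series than the other 12, so array series and RpII2154 cannot be told apart. The means of these 2 groups were also larger for the difference between 3′ and 5′ probe sets of Gapdh, a measure of RNA integrity and labelling, though single arrays overlapped those of Marcal1del/del at 20 °C: 1.53 ± 0.26 log2 units in RpII2154/FM7;Marcal1del/del and 1.49 ± 0.14 in RpII2154/FM7, against 1.28 ± 0.07 in Marcal1del/del and 1.15 ± 0.05 in yw at 20 °C. The same difference for actin did not overlap, at 1.26 to 2.04 on the 6 RpII2154 arrays and 0.75 to 1.23 on the other 12. Its mean was 1.70 ± 0.29 in RpII2154/FM7;Marcal1del/del and 1.37 ± 0.17 in RpII2154/FM7. The part of series and RNA quality in the results was not tested.

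Most of the family was measured above the middle of the array. In 26 of 36 probe sets every group mean was over every array median, and in 7 probe sets (GstE2, GstE4, GstZ2, GstD4, GstD5, GstD6 and GstD11) every group mean was under every array median. The remaining 3 (GstE5, GstD7 and the GstE9 probe set 1633238) crossed that range. The spread between the highest and the lowest of the 6 group means ran from 0.20 log2 units for GstD6 to 2.59 for GstE10, and the pooled SD within groups ran from 0.06 for GstT3 to 0.59 for GstE14.

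Each comparison was tested with limma on all 18 arrays, and a probe set was called at a Benjamini-Hochberg adjusted p under 0.05 over all 18769 probe sets. In all, 12 probe sets of 12 genes were called in at least 1 of 9 comparisons, and the other 24 probe sets, covering 22 genes, in none. The share of all probe sets called in at least 1 comparison was not counted, so this number cannot be read against a background. Shares for single comparisons are given below. GstE10 was high in RpII2154/FM7 ovaries alone among the 6 groups. GstE13 was high in every mutant group and low in yw at both temperatures, and GstT3 was low in Marcal1del/del at both temperatures. GstE6, GstE7 and 1 of the 2 GstE9 probe sets were higher with RpII2154/FM7 in the Marcal1del/del background, and GstD9 was higher at 25 than at 20 °C in yw.

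The share of members called can be read against the share of all probe sets called. Marcal1del/del against yw called 1 member higher (GstE13) and 1 lower (GstT3) at 20 °C, where 1.18% of all probe sets were called, 0.527% higher and 0.650% lower. It called the same 2 genes in the same directions at 25 °C, where 1.23% were called, 0.527% higher and 0.698% lower. RpII2154/FM7;Marcal1del/del against RpII2154/FM7 called 1 member higher (GstO1) and 3 lower (GstE10, GstE3 and GstD2), with 1.88% of all probe sets called, 0.932% higher and 0.943% lower. RpII2154/FM7 against yw called 3 members, all higher (GstE10, GstE13 and GstD3), with 2.76% of all called, 1.52% higher and 1.24% lower. RpII2154/FM7;Marcal1del/del against Marcal1del/del called 5, all higher (GstE7, GstE9, GstE6, GstT3 and GstD8), with 3.85% of all called, 2.17% higher and 1.68% lower. At 25 against 20 °C, 1 member was called higher in yw (GstD9), with 0.256% of all called, 0.139% higher and 0.117% lower. In Marcal1del/del 2 members were called higher at 25 °C (GstE9 and GstE6), with 0.202% of all called, 0.133% higher and 0.0693% lower. With 36 members, 1 member more or less moves such a share by 2.78 percentage points. Several of these comparisons share arrays, so their counts are not independent of each other.

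**Figure D1:**
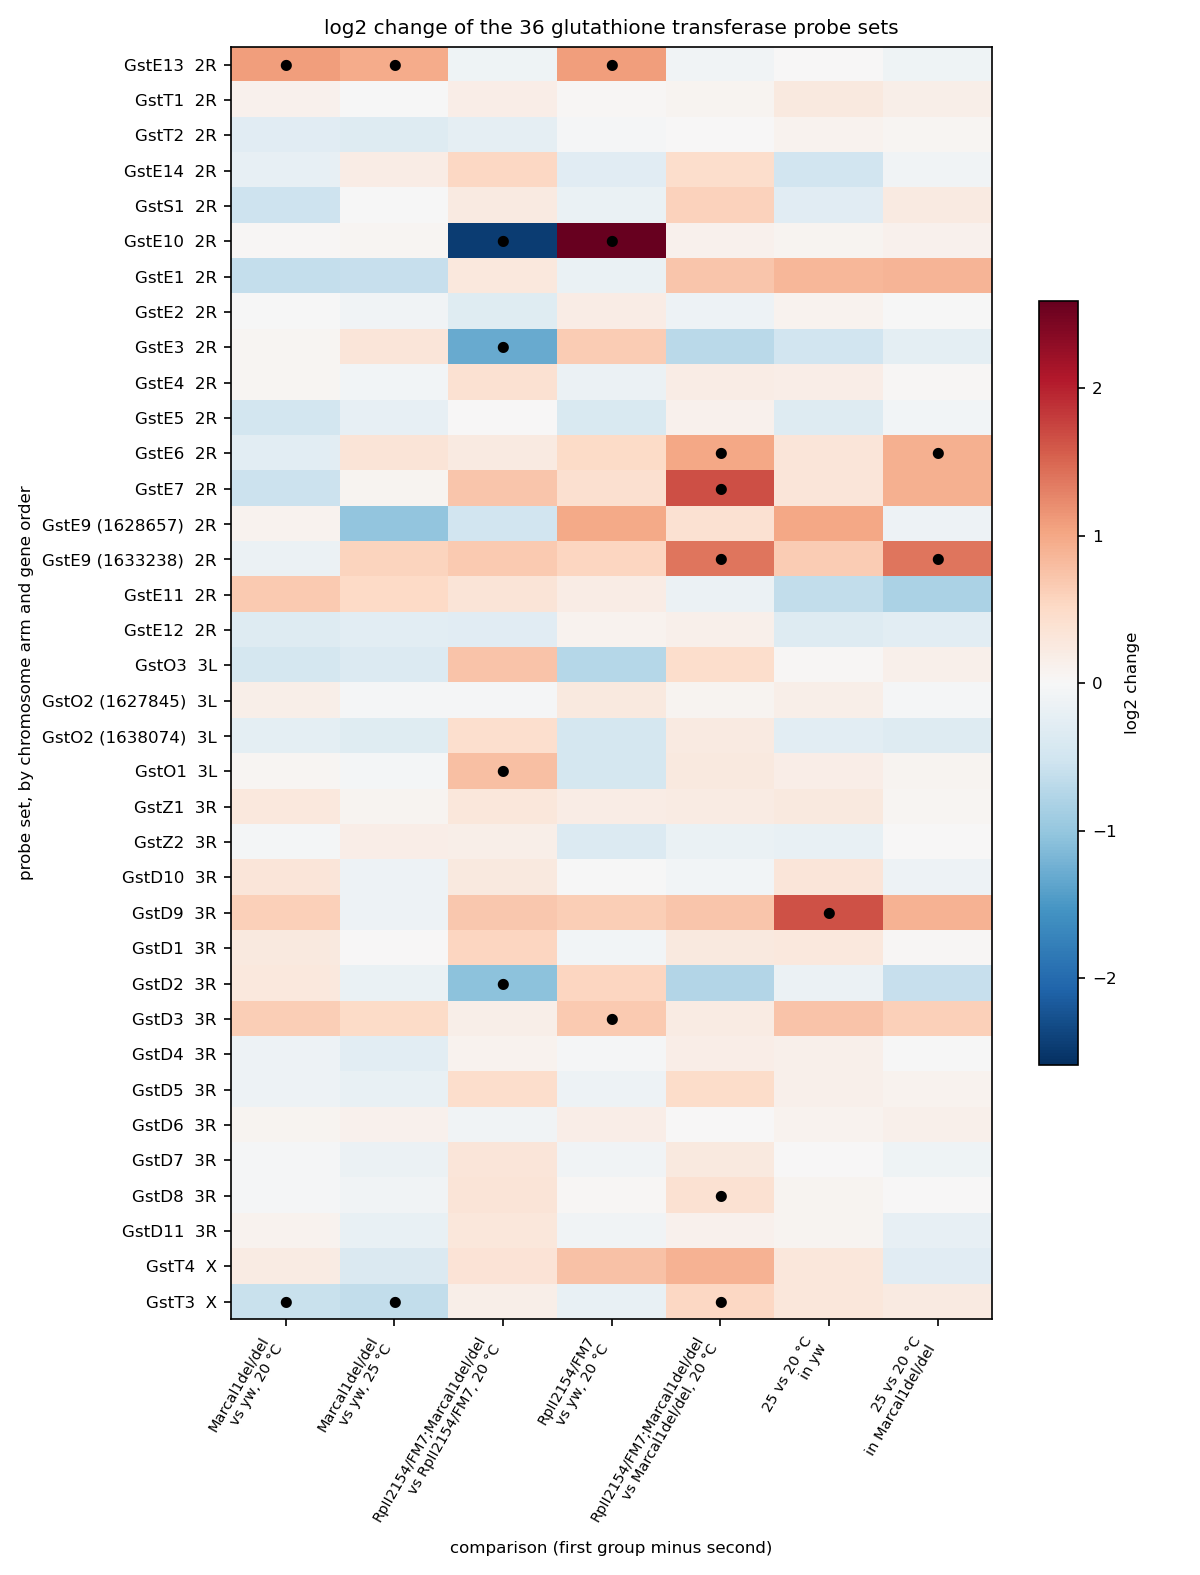
log2 change of each of the 36 glutathione transferase probe sets (rows, by chromosome arm and gene order) in 7 comparisons (columns, first group minus second), on a colour scale in log2 units from blue (lower) to red (higher), with a dot where limma's adjusted p was under 0.05. The strongest colours are GstE10, 2.59 in RpII2154/FM7 against yw and -2.46 in RpII2154/FM7;Marcal1del/del against RpII2154/FM7.

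Counted over all 36 members, called or not, changes leaned to the positive side in some comparisons. The counts include the 7 probe sets with every group mean under every array median. In RpII2154/FM7;Marcal1del/del against Marcal1del/del, 29 of 36 members had a positive change (80.6%, against 54.5% of all probe sets), and the median change was 0.21 for members and 0.02 for all. In RpII2154/FM7;Marcal1del/del against RpII2154/FM7, 26 of 36 were positive (72.2%, against 54.6%), with medians of 0.23 and 0.02. At 25 against 20 °C in yw, 27 of 36 were positive (75%, against 55.5%), with medians of 0.11 and 0.02. These are descriptions of correlated probe sets, and no test was made on the family as a whole. In Marcal1del/del against yw 18 of 36 were positive at 20 °C (50%, against 52% of all), and at 25 °C 13 of 36 (36.1%, against 46.8%), with medians of -0.08 for members and -0.01 for all.

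GstE10 had the largest changes of the family. It is an epsilon-class gene at the end of a run of 10 epsilon genes on arm 2R. Its log2 intensities were 5.30, 5.84 and 5.54 in Marcal1del/del and 5.71, 5.43 and 5.39 in yw at 25 °C. At 20 °C they were 5.67, 5.42 and 5.60 in RpII2154/FM7;Marcal1del/del, 7.90, 8.03 and 8.13 in RpII2154/FM7, 5.64, 5.43 and 5.30 in Marcal1del/del and 5.82, 5.02 and 5.45 in yw. The 3 RpII2154/FM7 arrays therefore stood over the other 15, with no overlap, and the other groups overlapped each other. The level was 6.02-fold higher in RpII2154/FM7 than in yw (2.59 ± 0.18 on the log2 scale, SE, adjusted p = 4.3e-07) and 5.49-fold lower in RpII2154/FM7;Marcal1del/del than in RpII2154/FM7 (-2.46 ± 0.18, adjusted p = 9.3e-07). Both comparisons rest on the same 3 RpII2154/FM7 arrays. In RpII2154/FM7;Marcal1del/del against Marcal1del/del the change was 0.10, with a 95% interval from -0.27 to 0.48. The change with Marcal1del/del differed between the RpII2154/FM7 background and the background without it by -2.48 ± 0.25 (adjusted p = 3.4e-05), 1 of 4 members for which that difference was called (1 higher, 3 lower), where 0.970% of all probe sets were called, 0.533% higher and 0.437% lower.

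The genes beside GstE10 gave other values. Its nearest measured neighbour on the other side, Idgf5, a chitinase-like growth factor, changed by -0.76 in RpII2154/FM7 against yw (adjusted p = 0.31) and by -0.17 in RpII2154/FM7;Marcal1del/del against RpII2154/FM7. GstE1, whose gene span overlaps that of GstE10 in RefSeq, changed by -0.17 (adjusted p = 0.74) and 0.28 (adjusted p = 0.49). The arrays do not say which of the overlapping spans a probe reads beyond the annotation, and probe sets of near-identical copies within the epsilon and delta runs may share signal.

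Further along the same run, GstE3 also differed between the RpII2154 genotypes, and GstE6, GstE7 and GstE9 differed elsewhere. GstE3 was at 5.44, 5.44 and 5.45 in RpII2154/FM7;Marcal1del/del, against 6.96, 7.14 and 6.14 in RpII2154/FM7. At 20 °C without RpII2154/FM7 it was at 6.72, 5.87 and 5.83 in Marcal1del/del and 5.91, 6.09 and 6.26 in yw, and at 25 °C at 5.67, 6.05 and 5.96 in Marcal1del/del and 5.54, 5.30 and 5.92 in yw. The RpII2154/FM7;Marcal1del/del arrays lay close together under all 3 RpII2154/FM7 arrays, while RpII2154/FM7 replicate 3 lay among the arrays of the groups without RpII2154/FM7. The fall was 2.47-fold (-1.30 ± 0.25, adjusted p = 0.014). The call was lost without RpII2154/FM7 replicate 1 (-1.20, adjusted p = 0.068) or replicate 2 (-1.11, adjusted p = 0.051), or without the RpII2154/FM7;Marcal1del/del array of replicate 1 (-1.30, adjusted p = 0.051). Without the 3 arrays that stand apart the change was -1.61 (adjusted p = 0.0023). The change with Marcal1del/del differed between the backgrounds by -1.36 ± 0.36 for GstE3, which was not called (adjusted p = 0.11), and by -1.58 (adjusted p = 0.028) without those 3 arrays.

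GstE6, GstE7 and GstE9 lie together at the far end of the run, beside GstE8, and several enzymes of this class are known to conjugate the lipid peroxidation product hydroxynonenal. GstE7 was at 9.79, 9.46 and 9.64 in RpII2154/FM7;Marcal1del/del, 8.58, 9.20 and 8.98 in RpII2154/FM7, 8.39, 7.70 and 7.77 in Marcal1del/del and 9.13, 8.12 and 8.26 in yw at 20 °C. At 25 °C it was at 8.67, 9.08 and 8.90 in Marcal1del/del and 8.68, 9.05 and 8.71 in yw. The RpII2154/FM7;Marcal1del/del arrays were the highest 3 of the 18. GstE7 was 3.20-fold higher in RpII2154/FM7;Marcal1del/del than in Marcal1del/del (1.68 ± 0.24, adjusted p = 0.00074). Against RpII2154/FM7 the groups did not overlap either, but the change of 0.71 ± 0.24 was not called (adjusted p = 0.14).

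GstE6 had intensities of 11.73, 11.57 and 11.49 in RpII2154/FM7;Marcal1del/del, 11.35, 11.50 and 11.26 in RpII2154/FM7, 10.84, 10.66 and 10.29 in Marcal1del/del and 11.24, 10.51 and 10.88 in yw at 20 °C. At 25 °C it had 11.31, 11.68 and 11.55 in Marcal1del/del and 11.27, 11.04 and 11.25 in yw. Marcal1del/del at 20 °C lay under all groups but yw at 20 °C, which it overlapped and which overlapped yw at 25 °C as well. GstE6 was 1.99-fold higher in RpII2154/FM7;Marcal1del/del than in Marcal1del/del (0.99 ± 0.17, adjusted p = 0.0031) and 1.88-fold higher at 25 than at 20 °C in Marcal1del/del (0.91 ± 0.17, adjusted p = 0.037). Both values use the same 3 Marcal1del/del arrays at 20 °C. In RpII2154/FM7 against yw the change was 0.49 ± 0.17 (adjusted p = 0.14), and without the 3 arrays that stand apart 0.73 (adjusted p = 0.047).

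The 2 probe sets of GstE9 did not give the same picture, and the gene span overlaps that of imd, an adaptor of immune signalling. Probe set 1633238 was at 5.29, 5.00 and 4.57 in RpII2154/FM7;Marcal1del/del, 4.30, 3.97 and 4.54 in RpII2154/FM7, 3.76, 3.54 and 3.40 in Marcal1del/del and 4.04, 3.50 and 3.60 in yw at 20 °C, and at 4.57, 5.32 and 4.94 in Marcal1del/del and 4.17, 4.62 and 4.29 in yw at 25 °C. All 6 arrays of Marcal1del/del and yw at 20 °C were under the range of array medians, so folds against them depend on background signal. It was 2.61-fold higher in RpII2154/FM7;Marcal1del/del than in Marcal1del/del (1.39 ± 0.22, adjusted p = 0.0017) and 2.60-fold higher at 25 than at 20 °C in Marcal1del/del (1.38 ± 0.22, adjusted p = 0.011). Probe set 1628657 was at 7.55, 7.25 and 8.07 in RpII2154/FM7;Marcal1del/del, 7.80, 8.24 and 8.29 in RpII2154/FM7, 8.14, 7.03 and 6.51 in Marcal1del/del and 7.58, 6.63 and 7.17 in yw at 20 °C, and at 7.52, 7.45 and 6.35 in Marcal1del/del and 8.19, 7.99 and 8.19 in yw at 25 °C. For these 2 comparisons it gave 0.39 ± 0.37 (adjusted p = 0.59) and -0.12 ± 0.37 (adjusted p = 1), with groups that overlapped.

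The temperature calls of GstE6 and GstE9 (1633238) in Marcal1del/del were both lost without Marcal1del/del 20 °C replicate 2 or replicate 3, or without Marcal1del/del 25 °C replicate 2 or replicate 3. GstE6 then changed by 0.76 to 0.94, with adjusted p between 0.12 and 0.26, and GstE9 by 1.19 to 1.38, with adjusted p between 0.058 and 0.098. GstE1, GstE2, GstE4 and GstE5 of the same run were not called in any comparison. GstE1 is an enzyme that also acts on hydroxynonenal. In RpII2154/FM7;Marcal1del/del against Marcal1del/del it did not overlap, at 0.72 ± 0.20 (adjusted p = 0.058), and its change was 0.94 (adjusted p = 0.022) without Marcal1del/del 20 °C replicate 1. At 25 °C it was at 9.94, 10.64 and 10.47 in Marcal1del/del and 10.83, 10.97 and 11.03 in yw, and at 20 °C at 9.91, 9.35 and 9.18 in Marcal1del/del and 10.26, 9.83 and 10.18 in yw. The temperatures did not overlap in either genotype, with changes of 0.87 ± 0.20 in Marcal1del/del (adjusted p = 0.15) and 0.85 ± 0.20 in yw (adjusted p = 0.12). The yw value became 1.00 (adjusted p = 0.048) without the 3 arrays that stand apart, and the Marcal1del/del value 1.09 (adjusted p = 0.043) without Marcal1del/del 20 °C replicate 1.

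**Figure D2:**
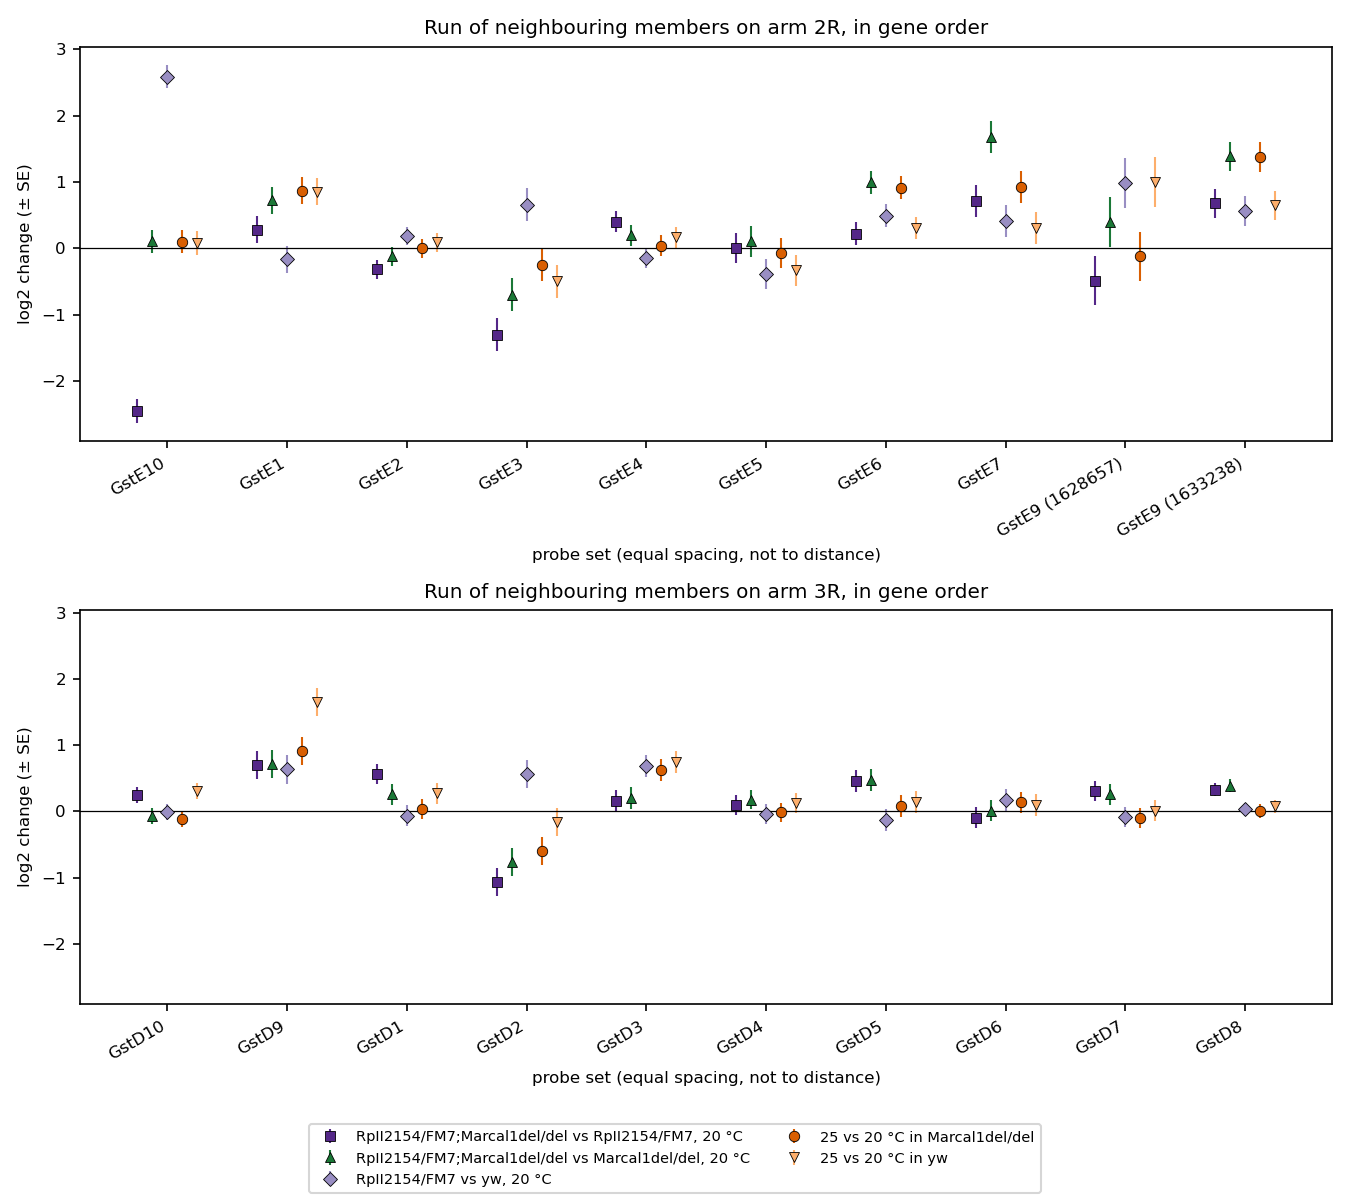
log2 change ± SE (y axis) of the probe sets of the 2 runs of neighbouring genes, the epsilon run on arm 2R (top) and the delta run on arm 3R (bottom), in gene order at equal spacing, in 5 comparisons shown by colour and marker. GstE10 stands at 2.59 and -2.46 in the comparisons that use RpII2154/FM7 against yw and RpII2154/FM7;Marcal1del/del against RpII2154/FM7, while GstE1 beside it stands at -0.17 and 0.28.

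GstE13 lies on arm 2R apart from the run. It was at 9.76, 10.11 and 9.92 in Marcal1del/del and 9.15, 9.01 and 8.76 in yw at 25 °C. At 20 °C it was at 10.04, 9.91 and 9.86 in RpII2154/FM7;Marcal1del/del, 9.77, 10.33 and 10.02 in RpII2154/FM7, 10.16, 9.95 and 10.00 in Marcal1del/del and 9.04, 8.57 and 9.26 in yw. All 12 arrays of the mutant genotypes were over all 6 yw arrays, and the mutant groups overlapped each other. Against yw it was 1.94-fold higher in Marcal1del/del at 25 °C (0.96 ± 0.17, adjusted p = 0.0067), 2.11-fold higher in Marcal1del/del at 20 °C (1.08 ± 0.17, adjusted p = 0.0022) and 2.12-fold higher in RpII2154/FM7 at 20 °C (1.08 ± 0.17, adjusted p = 0.0021). The 2 values at 20 °C share the yw arrays. With only the arrays compared in the fit, the RpII2154/FM7 call was lost (adjusted p = 0.081). The call at 25 °C was lost without yw replicate 3 (0.85, adjusted p = 0.052) or Marcal1del/del replicate 2 (0.87, adjusted p = 0.052).

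With RpII2154/FM7 present, Marcal1del/del made no called difference to GstE13: the change in RpII2154/FM7;Marcal1del/del against RpII2154/FM7 was -0.10, with a 95% interval from -0.46 to 0.26. The change with Marcal1del/del differed between the backgrounds by -1.18 ± 0.24 (adjusted p = 0.022). That call was lost without Marcal1del/del replicate 1 (adjusted p = 0.064), without RpII2154/FM7 replicate 2 (adjusted p = 0.061), and without replicate 2 (adjusted p = 0.058) or replicate 3 (adjusted p = 0.063) of RpII2154/FM7;Marcal1del/del. Temperature made no called difference, with 0.02 ± 0.17 in yw and -0.11 ± 0.17 in Marcal1del/del. The neighbouring genes Su(var)2-10, a SUMO ligase, and CG18659, whose span overlaps that of GstE13, were not called in the comparisons in which GstE13 was: they changed by 0.16 and -0.11 in Marcal1del/del against yw at 20 °C, by 0.01 and -0.18 at 25 °C, and by 0.04 and 0.05 in RpII2154/FM7 against yw.

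The other epsilon genes outside the run were not called. GstE14, also known as nobo, is needed for ecdysteroid synthesis in the prothoracic gland of the fly. It was at 5.20, 5.57 and 5.26 in Marcal1del/del and 5.76, 4.71 and 4.97 in yw at 25 °C, and at 5.52, 5.91 and 6.25 in RpII2154/FM7;Marcal1del/del, 4.66, 5.15 and 6.25 in RpII2154/FM7, 6.03, 5.36 and 4.91 in Marcal1del/del and 6.54, 5.09 and 5.28 in yw at 20 °C. The groups overlapped in all 7 comparisons between 2 groups. Its changes there ran from -0.49 to 0.54, each with an SE of 0.42, so the 95% interval reached 1.44 in RpII2154/FM7;Marcal1del/del against RpII2154/FM7. GstE11 did not overlap between temperatures in either genotype, at -0.81 ± 0.23 in Marcal1del/del (adjusted p = 0.42) and -0.63 ± 0.23 in yw (adjusted p = 0.49). GstE12 stayed between -0.34 and 0.13 in those 7 comparisons.

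Of the delta genes, GstD9, GstD2, GstD3 and GstD8 were called, all of them in the run of 10 delta genes on arm 3R. GstD9 was at 8.25, 8.86 and 8.96 in Marcal1del/del and 8.46, 9.02 and 8.96 in yw at 25 °C, and at 8.58, 8.57 and 8.37 in RpII2154/FM7;Marcal1del/del, 7.80, 7.60 and 7.99 in RpII2154/FM7, 8.01, 7.47 and 7.88 in Marcal1del/del and 7.48, 6.82 and 7.20 in yw at 20 °C. Every array at 25 °C was over every array of its own genotype at 20 °C. It was 3.13-fold higher at 25 than at 20 °C in yw (1.65 ± 0.21, adjusted p = 0.0023), a call that was lost with only the arrays compared in the fit (adjusted p = 0.098). In Marcal1del/del the change was 0.91 ± 0.21 (adjusted p = 0.15), and 1.12 (adjusted p = 0.048) without Marcal1del/del 25 °C replicate 1. The difference between the genotypes' temperature changes, which is also the difference between the Marcal1del/del changes at the 2 temperatures, was -0.74 ± 0.30 and was not called (unadjusted p = 0.025, adjusted p = 1).

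GstD9 was also uncalled but without overlap in both comparisons of RpII2154/FM7;Marcal1del/del, at 0.70 ± 0.21 against RpII2154/FM7 (adjusted p = 0.10) and 0.72 ± 0.21 against Marcal1del/del (adjusted p = 0.069). Without the 3 arrays that stand apart these were 0.80 (adjusted p = 0.045) and 0.72 (adjusted p = 0.033). GstD3 was at 9.31, 9.81 and 9.67 in Marcal1del/del and 8.90, 9.20 and 9.18 in yw at 25 °C, and at 9.37, 9.13 and 9.04 in RpII2154/FM7;Marcal1del/del, 9.25, 8.82 and 9.01 in RpII2154/FM7, 9.23, 8.89 and 8.81 in Marcal1del/del and 8.24, 8.20 and 8.60 in yw at 20 °C. The 3 yw arrays at 20 °C were the lowest of the 18. It was 1.60-fold higher in RpII2154/FM7 than in yw (0.68 ± 0.16, adjusted p = 0.035).

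That GstD3 call was lost without yw replicate 1 (0.63, adjusted p = 0.069) or replicate 2 (0.61, adjusted p = 0.17), without RpII2154/FM7 replicate 1 (0.57, adjusted p = 0.13) or replicate 3 (0.69, adjusted p = 0.086), and without the 3 arrays that stand apart (0.63, adjusted p = 0.11). Against the same yw arrays, GstD3 changed by 0.63 ± 0.16 in Marcal1del/del at 20 °C (adjusted p = 0.10) and by 0.74 ± 0.16 in yw at 25 °C (adjusted p = 0.088), again without overlap. The temperature change in yw was 0.79 (adjusted p = 0.047) without the 3 arrays that stand apart.

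GstD2 lay beside GstD1 in the run and was at 5.37, 5.63 and 5.13 in RpII2154/FM7;Marcal1del/del, 6.57, 6.27 and 6.48 in RpII2154/FM7, 6.60, 5.93 and 5.90 in Marcal1del/del and 5.93, 5.83 and 5.86 in yw at 20 °C. At 25 °C it was at 5.29, 6.05 and 5.29 in Marcal1del/del and 5.50, 5.96 and 5.69 in yw. RpII2154/FM7;Marcal1del/del was the lowest group at 20 °C and did not overlap any of the others there. It was 2.09-fold lower in RpII2154/FM7;Marcal1del/del than in RpII2154/FM7 (-1.06 ± 0.21, adjusted p = 0.018), and -0.77 ± 0.21 against Marcal1del/del was not called (adjusted p = 0.057). The first call was lost without RpII2154/FM7 replicate 1 (adjusted p = 0.074), or without the RpII2154/FM7;Marcal1del/del array of replicate 1 (-1.06, adjusted p = 0.062) or replicate 3 (-0.94, adjusted p = 0.067), and when the values were quantile normalized again (-0.84, adjusted p = 0.057). The change with Marcal1del/del differed between the backgrounds by -1.33 ± 0.30 (adjusted p = 0.048), a call that was lost without any of 10 of the 12 arrays at 20 °C, the exceptions being Marcal1del/del replicate 3 and RpII2154/FM7;Marcal1del/del replicate 2, and also without the 3 arrays that stand apart (-1.34, adjusted p = 0.083) and when quantile normalized again (-1.19, adjusted p = 0.099).

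GstD8, at the far end of the delta run, had 4.90, 4.76 and 4.90 in RpII2154/FM7;Marcal1del/del, 4.31, 4.61 and 4.66 in RpII2154/FM7, 4.52, 4.56 and 4.33 in Marcal1del/del and 4.58, 4.49 and 4.41 in yw at 20 °C, and 4.43, 4.50 and 4.49 in Marcal1del/del and 4.55, 4.54 and 4.63 in yw at 25 °C. The RpII2154/FM7;Marcal1del/del arrays were the highest 3 of the 18, in a range just over the array medians. The rise against Marcal1del/del was 1.31-fold (0.39 ± 0.10, adjusted p = 0.040), and leaving out any of the 6 arrays compared lost the call, with changes of 0.32 to 0.43 and adjusted p between 0.057 and 0.12. GstD1, which breaks down DDT and is the family's stress reporter, was at 13.31, 13.38 and 13.44 in Marcal1del/del and 13.13, 13.66 and 13.31 in yw at 25 °C, and at 13.66, 13.50 and 13.63 in RpII2154/FM7;Marcal1del/del, 13.04, 12.94 and 13.13 in RpII2154/FM7, 13.36, 13.20 and 13.46 in Marcal1del/del and 13.46, 12.78 and 13.06 in yw at 20 °C. RpII2154/FM7;Marcal1del/del stood over RpII2154/FM7 without overlap, and yw at 20 °C was the most scattered group.

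No GstD1 change was called on all arrays. Its largest was 0.56 ± 0.15 in RpII2154/FM7;Marcal1del/del against RpII2154/FM7 (adjusted p = 0.07), which became 0.61 (adjusted p = 0.019) without the 3 arrays that stand apart. Without them the change at 25 against 20 °C in yw, 0.27 ± 0.15 on all arrays (adjusted p = 0.76), became 0.57 (adjusted p = 0.04). GstD10, GstD4, GstD5, GstD6, GstD7 and GstD11 were not called in any comparison, and GstD4, GstD5, GstD6 and GstD11 were among the probe sets with every group mean under every array median.

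**Figure D3:**
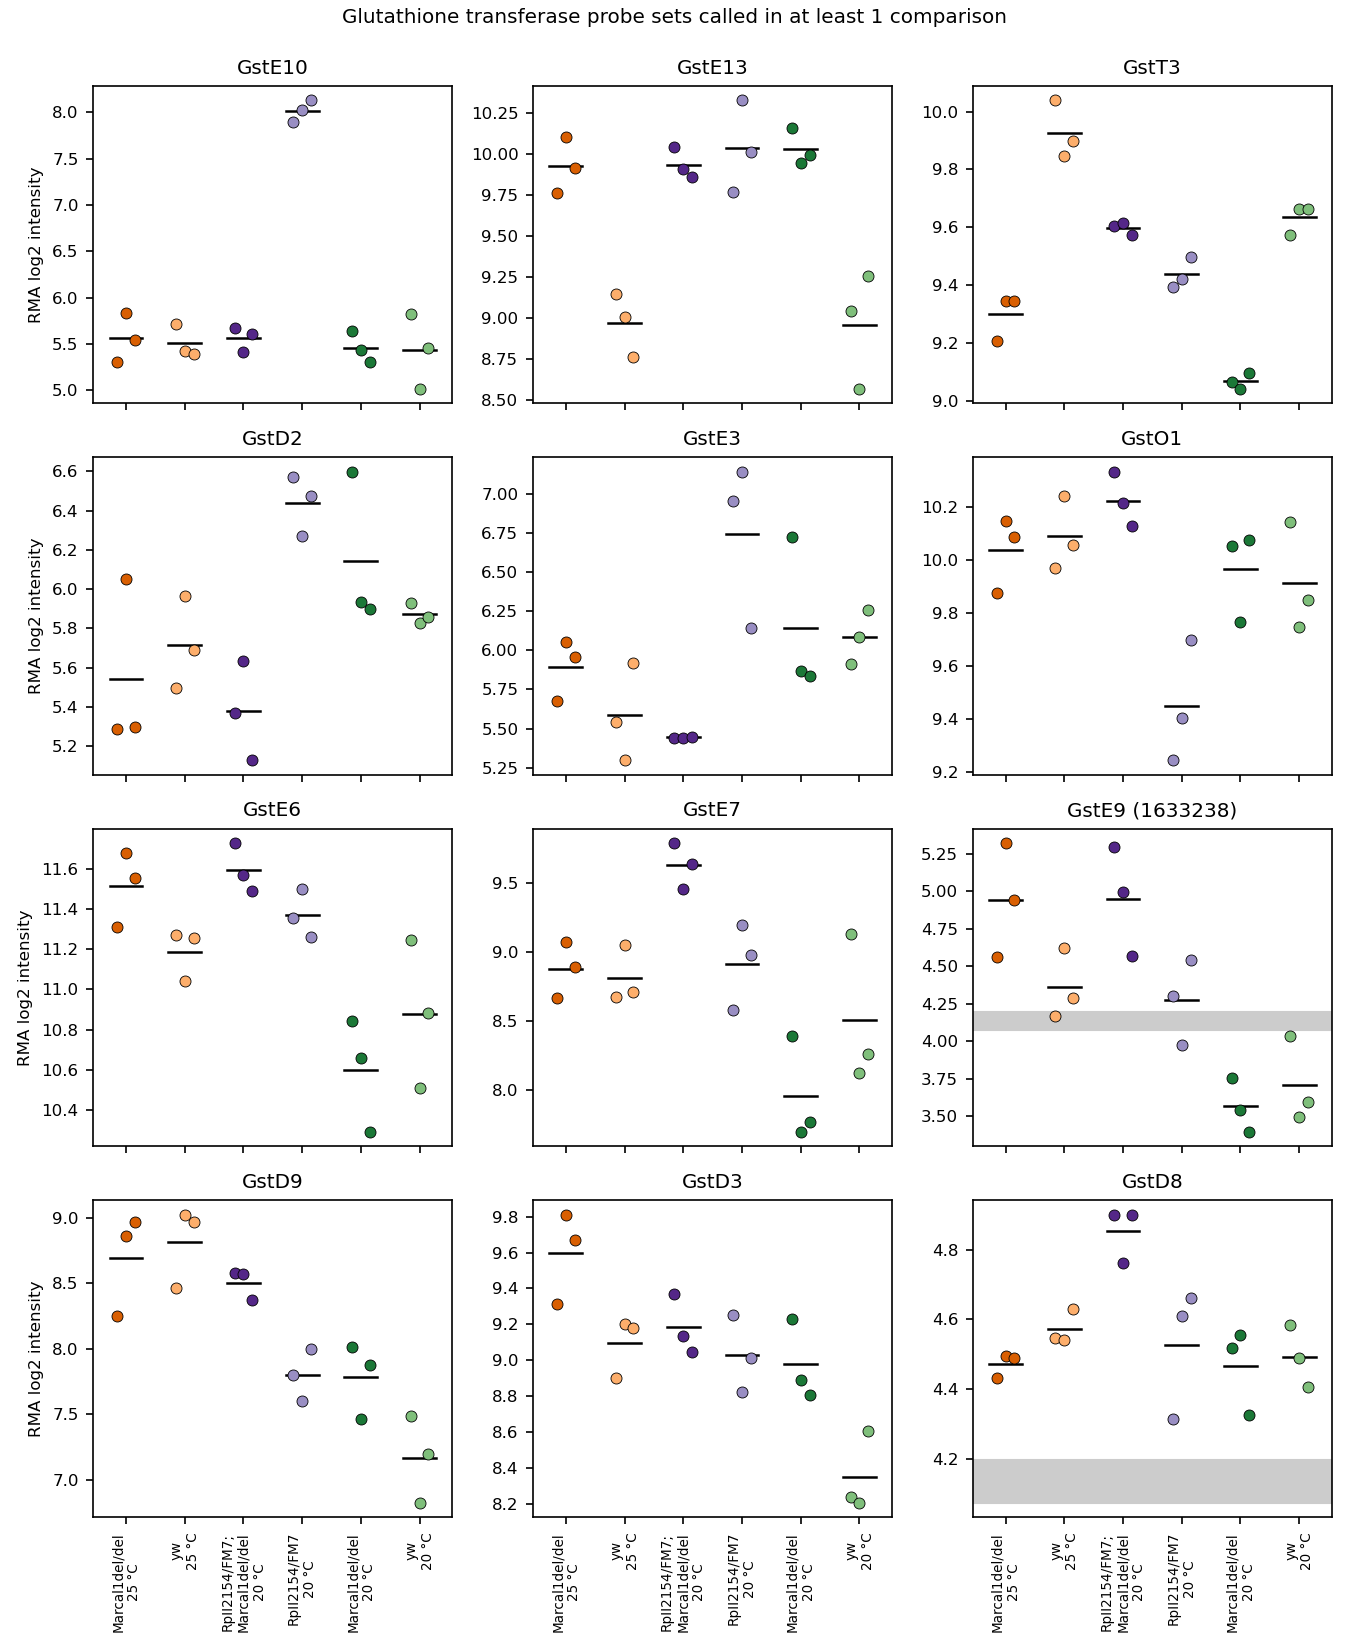
log2 intensity (y axis, a scale of its own in each panel) of the 12 probe sets called in at least 1 comparison, 1 dot per array and 3 arrays per group, with a line at the group mean and, in 2 panels, a grey band for the range of the 18 array medians. RpII2154/FM7 stands alone at 7.90 to 8.13 for GstE10, and both yw groups stand under the mutant groups for GstE13.

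Of the theta genes, only GstT3, on the X chromosome, was called. It was at 9.21, 9.35 and 9.35 in Marcal1del/del and 10.04, 9.85 and 9.90 in yw at 25 °C, and at 9.60, 9.61 and 9.57 in RpII2154/FM7;Marcal1del/del, 9.39, 9.42 and 9.50 in RpII2154/FM7, 9.07, 9.04 and 9.10 in Marcal1del/del and 9.57, 9.67 and 9.66 in yw at 20 °C. Its arrays were the closest within groups of all members, and Marcal1del/del lay under yw at each temperature without overlap. It was 1.54-fold lower in Marcal1del/del than in yw at 25 °C (-0.63 ± 0.08, adjusted p = 0.00024) and 1.48-fold lower at 20 °C (-0.57 ± 0.08, adjusted p = 0.00062). These 2 comparisons share no arrays, and the difference between them was -0.06 ± 0.11 (adjusted p = 1).

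In the RpII2154/FM7 background the Marcal1del/del change of GstT3 had the other sign and was not called, at 0.16 with a 95% interval from -0.01 to 0.33. The difference between the backgrounds was 0.73 ± 0.11 (adjusted p = 0.0022). Against Marcal1del/del, GstT3 was 1.44-fold higher in RpII2154/FM7;Marcal1del/del (0.53 ± 0.08, adjusted p = 0.00083). The RpII2154 genotypes carry the balancer X, on which GstT3 and GstT4 also lie, and the part of this in their values was not tested. The neighbouring gene tbc, a Rab GTPase activator, was not called in any of the comparisons in which GstT3 was. GstT4, in the other X position, varied widely, with an SD of 0.87 in Marcal1del/del and 0.81 in yw at 20 °C, and GstT1 and GstT2, neighbours on arm 2R, changed by at most 0.26 and 0.33 in size.

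The omega enzymes act as thiol transferases and dehydroascorbate reductases. GstO1 was at 10.33, 10.21 and 10.13 in RpII2154/FM7;Marcal1del/del, 9.24, 9.40 and 9.70 in RpII2154/FM7, 10.05, 9.76 and 10.08 in Marcal1del/del and 10.14, 9.75 and 9.85 in yw at 20 °C, and at 9.87, 10.14 and 10.09 in Marcal1del/del and 9.97, 10.24 and 10.05 in yw at 25 °C. The 3 RpII2154/FM7 arrays were the lowest of the 18. The level was 1.71-fold higher in RpII2154/FM7;Marcal1del/del than in RpII2154/FM7 (0.77 ± 0.14, adjusted p = 0.0079), a call that was lost with only the arrays compared in the fit (adjusted p = 0.062). GstO3 did not overlap in the same comparison, at 0.74 ± 0.23 (adjusted p = 0.11). Of the 2 GstO2 probe sets, 1638074 changed there by 0.43 ± 0.14 (adjusted p = 0.13) without overlap, and 1627845 by -0.02 ± 0.13 (adjusted p = 0.95).

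GstS1, the sigma-class enzyme, is abundant in flight muscle and acts on hydroxynonenal. It was at 9.42, 9.41 and 9.35 in Marcal1del/del and 9.64, 9.07 and 9.54 in yw at 25 °C, and at 9.68, 9.82 and 9.80 in RpII2154/FM7;Marcal1del/del, 9.78, 9.14 and 9.69 in RpII2154/FM7, 8.98, 9.24 and 9.29 in Marcal1del/del and 9.91, 9.52 and 9.71 in yw at 20 °C. Marcal1del/del at 20 °C lay under both yw and RpII2154/FM7;Marcal1del/del without overlap. Neither change was called, at -0.54 ± 0.17 against yw (adjusted p = 0.22) and 0.60 ± 0.17 for RpII2154/FM7;Marcal1del/del against Marcal1del/del (adjusted p = 0.058; 0.039 without the 3 arrays that stand apart). GstZ1 and GstZ2, whose class catalyses a step of tyrosine breakdown, were not called in any comparison, and the group means of GstZ2 were under every array median.

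The changes of the family can be set against each other where 2 comparisons share no arrays. Marcal1del/del against yw had the same sign at 25 and 20 °C in 21 of 36 members (58.3%, against 62.3% of all probe sets), and the correlation of the changes was 0.51 over members and 0.72 over all. The change at 25 against 20 °C had the same sign in Marcal1del/del and yw in 25 of 36 (69.4%, against 60.4%), with a correlation of 0.66 over members and 0.47 over all. Points of the 2 runs may share signal, so these are descriptions. For the difference of the Marcal1del/del change between the temperatures limma called 0 members and 0.0107% of all probe sets. At an unadjusted p under 0.05 there were 6 members, and the share of all probe sets at that threshold was not counted.

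**Figure D4:**
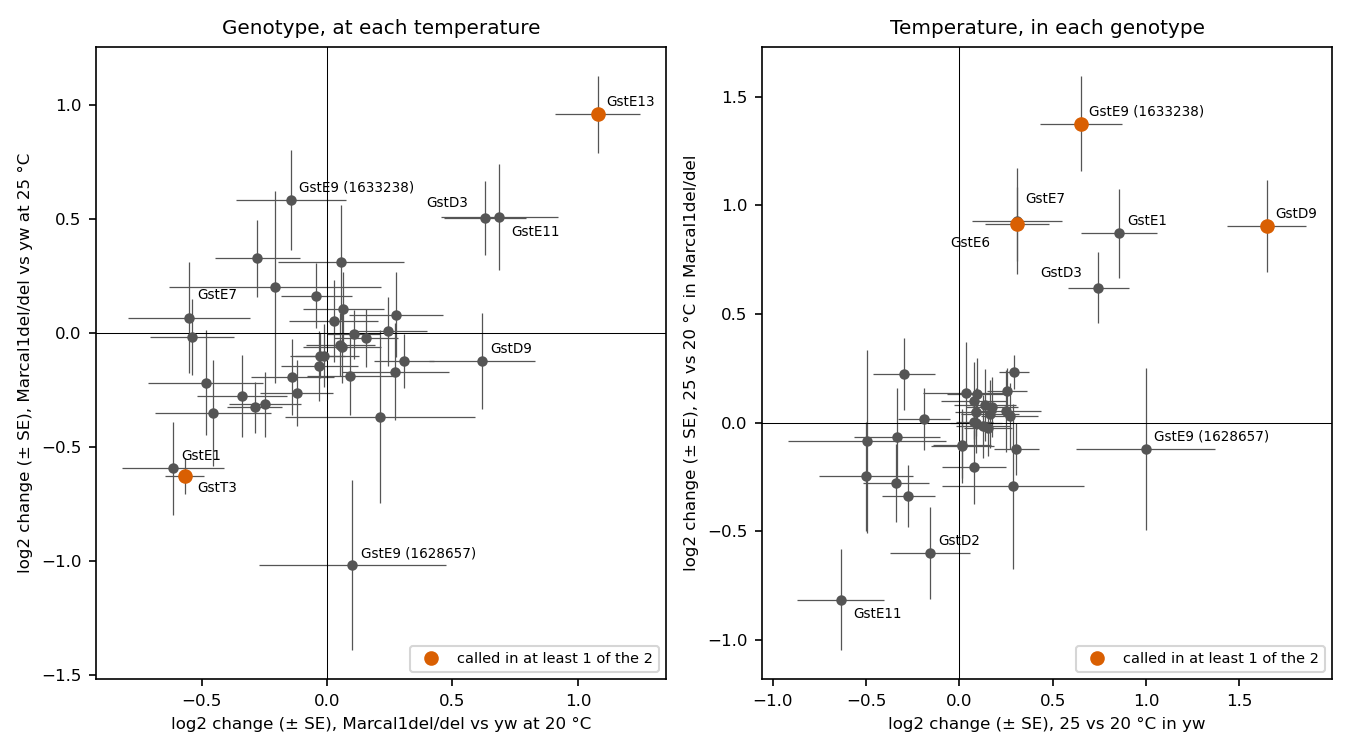
log2 change ± SE of the 36 probe sets for Marcal1del/del against yw at 25 °C (y) against 20 °C (x) on the left, and for 25 against 20 °C in Marcal1del/del (y) against yw (x) on the right, with orange dots for members called in at least 1 of the 2. GstE13 stands at 0.96 and 1.08 on the left, and GstD9 at 0.91 and 1.65 on the right.

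The enzymes and regulators around the family were read from lists of their own. Of the glutathione synthesis list, Gclc, Gclm and Ggt-1 were measured, and Gss1 and Gss2 had no probe set of their own name. Ggt-1 belongs to the cutting of glutathione outside the cell, not to its synthesis. None of these 3 genes was called by limma in any of the 9 comparisons. Of cnc, Keap1 and maf-S, only Keap1 was called, 0.43 ± 0.11 higher in RpII2154/FM7 than in yw (adjusted p = 0.043). Of 15 thiol reduction genes, the peroxiredoxin Prx6c was 1.26 ± 0.28 higher in Marcal1del/del than in yw at 20 °C (adjusted p = 0.037) and lower in RpII2154/FM7;Marcal1del/del than in RpII2154/FM7 (-2.54 ± 0.28, adjusted p = 8.4e-05) and than in Marcal1del/del (-3.49 ± 0.28, adjusted p = 1.4e-06). Its Marcal1del/del change differed between the backgrounds by -3.80 ± 0.40 (adjusted p = 4.6e-05). The glutaredoxin Grx1 was 0.44 higher in RpII2154/FM7 than in yw (adjusted p = 0.031).

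Of 6 other enzymes with the transferase fold or in membranes, Mgstl, the microsomal glutathione transferase, was called in Marcal1del/del against yw, at -0.39 ± 0.08 at 25 °C (adjusted p = 0.017) and -0.35 ± 0.08 at 20 °C (adjusted p = 0.037), and it was higher in RpII2154/FM7;Marcal1del/del than in Marcal1del/del (0.33 ± 0.08, adjusted p = 0.028). Of 6 exporters, the ABC transporter gene Mrp5 was higher in Marcal1del/del than in yw, by 2.38 ± 0.13 at 25 °C (adjusted p = 1.2e-08) and 1.74 ± 0.13 at 20 °C (adjusted p = 5.8e-07). It was also higher in RpII2154/FM7 than in yw (0.64 ± 0.13, adjusted p = 0.011) and lower in RpII2154/FM7;Marcal1del/del than in Marcal1del/del (-1.53 ± 0.13, adjusted p = 1.5e-06), and its Marcal1del/del change differed between the backgrounds by -2.17 ± 0.18 (adjusted p = 2.9e-06). The exporter genes Mdr49 and Mdr65 were each called lower once, Mdr49 in Marcal1del/del against yw at 25 °C (-0.86, adjusted p = 0.048) and Mdr65 in RpII2154/FM7;Marcal1del/del against Marcal1del/del (-0.71, adjusted p = 0.038). The list of detoxification phases I and II held 24 measured genes, mostly cytochrome P450 and glycosyltransferase genes. In Marcal1del/del against yw 3 were called higher and 3 lower at 20 °C, where 1.18% of all probe sets were called. At 25 °C 2 were called higher and 3 lower, where 1.23% of all probe sets were called. In RpII2154/FM7 against yw 3 were called higher and 3 lower, with 2.76% of all called, and in RpII2154/FM7;Marcal1del/del against Marcal1del/del 2 higher and 1 lower, with 3.85% of all called. The difference between the backgrounds was called higher for 3 and lower for 2, with 0.970% of all called, and limma called none in the temperature comparisons. The P450 gene Cyp12d1-d was the only one of the list called in RpII2154/FM7;Marcal1del/del against RpII2154/FM7 (4.26 ± 0.17, adjusted p = 1.9e-10). Against yw the largest changes were of Cyp6a17, 4.96 in Marcal1del/del at 20 °C, 4.05 at 25 °C and 4.90 in RpII2154/FM7. Cyp4p2 was called lower in the same comparisons, at -3.29, -2.73 and -2.73 (adjusted p at most 6.8e-07 for both genes). The differences between the backgrounds were -5.12 for Cyp6a17 and 2.85 for Cyp4p2. Of 7 ecdysteroid synthesis genes, nvd and dib were called lower in RpII2154/FM7;Marcal1del/del against RpII2154/FM7, at -0.85 ± 0.19 and -0.46 ± 0.10 (adjusted p = 0.03 for each). In RpII2154/FM7;Marcal1del/del against Marcal1del/del nvd was also called lower, at -0.92 ± 0.19 (adjusted p = 0.013).

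Markers of other cells leaned to one side in several of the comparisons in which members were called. In RpII2154/FM7;Marcal1del/del against RpII2154/FM7, none of 10 hemocyte markers, 9 muscle markers, 6 Malpighian tubule markers or 3 spermatheca markers had a positive change, with median changes of -0.51, -0.94, -0.41 and -1.52, while GstE10, GstE3 and GstD2 fell and GstO1 rose. The mean muscle level ran from 5.26 to 5.99 in RpII2154/FM7;Marcal1del/del and from 6.29 to 6.89 in RpII2154/FM7, and the mean hemocyte level from 5.52 to 5.87 and from 5.84 to 6.43 in the same groups. The spermatheca marker hdly was called lower there (-1.52 ± 0.30, adjusted p = 0.015). So were the hemocyte marker PPO1 (-0.79 ± 0.19, adjusted p = 0.048) and the gut marker Jon25Biii (-0.74 ± 0.14, adjusted p = 0.012). The germline marker bam (1.08 ± 0.23, adjusted p = 0.023) and the gut marker Jon99Ci (0.34 ± 0.08, adjusted p = 0.039) were called higher. Every group mean of Jon99Ci was under every array median. The germline list had 2 of 7 positive there (median -0.11), the gut list 5 of 9 (0.02) and the eggshell list 2 of 13 (-0.68). In RpII2154/FM7 against yw, where GstE10, GstE13 and GstD3 were called, 8 of 9 muscle markers (median 0.84), 8 of 10 hemocyte markers (0.43) and 3 of 3 spermatheca markers (0.84) had a positive change. Fat body markers went the other way, with 1 of 6 positive (median -0.57) and Apoltp called lower (-1.65 ± 0.36, adjusted p = 0.022). The hemocyte marker PPO1 (0.79 ± 0.19, adjusted p = 0.04) and the germline marker aub (0.74 ± 0.08, adjusted p = 9.1e-05) were called higher. The germline list had 5 of 7 positive there (median 0.08). In Marcal1del/del against yw, where GstE13 and GstT3 were called, 13 of 13 eggshell genes had a positive change at both temperatures, with medians of 1.66 at 25 °C and 1.05 at 20 °C. At 20 °C 1 of 10 hemocyte markers (median -0.23) and 2 of 9 muscle markers (-0.34) had a positive change, and at 25 °C 3 of 10 (-0.08) and 2 of 9 (-0.18). The muscle marker TpnC4 was called lower at 20 °C (-1.70 ± 0.32, adjusted p = 0.0097). In RpII2154/FM7;Marcal1del/del against Marcal1del/del, none of 13 eggshell genes had a positive change (median -1.90), with mean levels of 10.47 to 11.50 and 12.35 to 13.19. There 1 of 6 fat body markers (median -0.84) and 7 of 9 muscle markers (0.14) had a positive change. Called lower were fit (-3.19), Cp36 (-1.91), Cp38 (-1.90) and Jon25Biii (-0.75). Called higher were bam (0.92) and aub (0.44), all with adjusted p between 0.0059 and 0.047. The germline list had 3 of 7 positive there (median -0.02). In the temperature comparisons, the eggshell level ran from 12.70 to 13.00 in Marcal1del/del at 25 °C and from 12.35 to 13.19 at 20 °C, and from 10.74 to 11.64 in yw at 25 °C and from 9.94 to 12.60 at 20 °C. At 25 against 20 °C in Marcal1del/del, 10 of 10 hemocyte markers (median 0.17) and 8 of 9 muscle markers (0.33) had a positive change. The germline marker aub was called higher at 25 °C in Marcal1del/del (0.62 ± 0.08, adjusted p = 0.0028) and in yw (0.55 ± 0.08, adjusted p = 0.0053). The germline list as a whole did not rise with it, with 3 of 7 positive in Marcal1del/del (median -0.008) and 1 of 7 in yw (median -0.24). Of the markers, 2 of 10 for hemocytes, 1 of 9 for muscle, 5 of 9 for gut, 2 of 6 for Malpighian tubule and 1 of 3 for spermatheca had every group mean under every array median, against 0 of 13 for eggshell, 0 of 7 for germline and 0 of 6 for fat body. Their part in the members' changes was not tested.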

How the data were processed

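RNA of 18 ovary samples was measured on Affymetrix Drosophila Genome 2.0 arrays, 1 sample per array. The deposited table holds log2 intensities per probe set, which the authors made with RMA, per the submitters' processing notes; its version and the probe definitions are not given in the labels. RMA brings the arrays towards 1 distribution and can hide a shift of most transcripts, though the medians of the deposited values still ran from 4.07 to 4.20. Of 18952 probe sets, 183 controls were left out and 18769 tested, with no filter. The platform annotation, updated through gene identifiers, named 1 gene for 13647, several for 402 and none for 4720. Only arms and gene order were taken from RefSeq. Groups followed the titles. All 18 arrays were fitted with limma 3.58.1 in R 4.3.3 with a group term (residual degrees of freedom 12, prior 3.85), two-sided, with Benjamini-Hochberg adjustment over all probe sets; the code was tested on simulated data. Named were all called members, GstD1, GstS1 and GstE14, with the other members given by ranges or examples. Beyond that rule, GstE1, GstE11, GstE12, GstO2, GstO3, GstT1, GstT2, GstT4, GstZ1 and GstZ2 were given values or remarks after their values were seen. The members, gene lists and left-out arrays were chosen with earlier results of these data known. The number of arrays limits the precision. Alternatives were another normalization, variance model, filter, replicate block and array sets.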

Additional observations from a re-analysis of the deposited data

Results flagged for a closer look

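For 4 members the change with Marcal1del/del differed, by the limma test of the difference itself, between the RpII2154/FM7 background and the background without it at 20 °C. The difference was -2.48 ± 0.25 for GstE10 (SE, adjusted p = 3.4e-05), with changes of -2.46 with and 0.03 without RpII2154/FM7. It was -1.33 ± 0.30 for GstD2 (adjusted p = 0.048), with changes of -1.06 and 0.27. It was -1.18 ± 0.24 for GstE13 (adjusted p = 0.022), with changes of -0.10 and 1.08. It was 0.73 ± 0.11 for GstT3 (adjusted p = 0.0022), with changes of 0.16 and -0.57. The 6 arrays with RpII2154/FM7 belong to another array series than the 6 without, and the comparison with RpII2154/FM7 lies within 1 series, as does the comparison without it.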

How the results depend on the processing

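Of 23 calls of a member in a comparison, 11 were kept under every alternative that tested them, 12 were lost in at least 1 and 0 reversed. Those kept throughout were GstE13 and GstT3 in Marcal1del/del against yw at 20 °C, GstT3 at 25 °C, GstE10 in both RpII2154/FM7 comparisons, GstE6, GstE7, GstE9 (1633238) and GstT3 in RpII2154/FM7;Marcal1del/del against Marcal1del/del, and the differences between backgrounds of GstE10 and GstT3. With only the arrays compared in the fit, 2 members were called in place of 4 in RpII2154/FM7;Marcal1del/del against RpII2154/FM7, 1 in place of 3 in RpII2154/FM7 against yw, 0 in place of 1 for temperature in yw and 0 in place of 2 in Marcal1del/del; fewer arrays leave fewer degrees of freedom, and the count over all probe sets was 153 in place of 352, 137 in place of 518, 2 in place of 48 and 16 in place of 38. Quantile normalization again gave 5 in RpII2154/FM7 against yw. Probe sets over the median mean gave 8 in place of 5 in RpII2154/FM7;Marcal1del/del against Marcal1del/del, and an intensity trend with robust moderation gave 2 for temperature in yw. Counts over all probe sets are not given here for these settings, so a gain particular to the members cannot be told from a general one. The cause was not tested. Without the 3 arrays that stand apart, temperature in yw gave 4 members, and 788 in place of 48 of all probe sets; the counts over all were 743 in place of 352 and 1271 in place of 722 in RpII2154/FM7;Marcal1del/del against RpII2154/FM7 and against Marcal1del/del, 385 in place of 221 and 366 in place of 230 in Marcal1del/del against yw at 20 and 25 °C, 64 in place of 38 for temperature in Marcal1del/del, and 349 in place of 182 and 13 in place of 2 for the differences by background and by temperature.

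Leaving out each replicate in turn gave 2 members in Marcal1del/del against yw at 20 °C and 1 to 2 at 25 °C, 2 to 4 in RpII2154/FM7;Marcal1del/del against RpII2154/FM7, 2 to 3 in RpII2154/FM7 against yw, 4 to 5 in RpII2154/FM7;Marcal1del/del against Marcal1del/del, 1 to 2 for temperature in yw, 0 to 3 in Marcal1del/del, 0 for the difference by temperature and 2 to 5 for the difference by background. Counts over all probe sets are not given here for these fits, nor for the replicate block below. The labels do not say that equal replicate numbers pair samples. Over 45 pairs of the same number in other groups the correlation of deviations from group means ran from -0.33 to 0.47 (median -0.03), and 11 were over 0.1. Over 90 pairs of other numbers it ran from -0.45 to 0.39 (median 0.006), and 32 were over 0.1. Whether the numbers pair samples cannot be told from these values. With the replicate block the counts were 2, 2, 4, 2, 4, 1 and 2 in the 7 comparisons, in the order of the map of changes, and 0 and 3 for the differences by temperature and by background; the block lost GstD3, GstD8 and the GstD2 difference. Signal over background limits the 7 probe sets whose group means were under every array median.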
